A study of Homo sapiens with 48 samples.

Results

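IMR90 ER:RAS cells are human fibroblasts of a line isolated from normal lung tissue. A retrovirus gave them RAS G12V fused to the hormone-binding domain of the oestrogen receptor (ER:RAS G12V). The cells were compared with and without activation of the fusion. Of the 48 RNA-seq libraries of the series, the 16 made from cells given a non-targeting siRNA (siNT1 or siNT2) were taken, 8 from cells treated with 4-hydroxytamoxifen (4OHT) and 8 from cells treated with the solvent DMSO. In each group 4 libraries were from siNT1 and 4 from siNT2. The cells were kept for 6 days in 4OHT or DMSO, transfected, and held for 2 more days in 0.5% serum before RNA was taken. For the 4 libraries titled 4OHT and siNT2 the treatment label names siNT1, and the title was followed. Cells of both groups carried the fusion, and libraries from cells without it given 4OHT were not analysed here, so activation of RAS and any other action of 4OHT cannot be told apart. Nothing in the labels says whether the 4 replicates were separate cultures. The methods call replicates in culture independent experiments but give another number of them than the labels. The p-values thus measure the spread between libraries, which may be technical. For genes and single splicing events that spread was fitted over all 48 libraries together, those given other siRNAs included.

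Oncogenic RAS signals through the kinases RAF, MEK and ERK, and ERK switches on genes that include its own phosphatases and inhibitors. In normal fibroblasts sustained RAS signalling ends in senescence, a lasting arrest in which inhibitors of cyclin-dependent kinases hold the cell cycle and the cell secretes interleukins, chemokines, proteases and growth factors. Much of this secretion follows from interleukin-1, which acts through the transcription factors NF-kB and C/EBP beta. Alternative splicing lets a gene make several mRNAs, by taking in or leaving out an exon, by keeping an intron, or by moving a splice site.

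The 16 libraries held 32346632 to 45855425 counts on genes, with a median of 38758452. Within each siRNA and treatment the libraries differed by more than the sampling noise, and each was kept. The library DMSO siNT1 replicate 1 stood apart from its group, with a median correlation of log CPM of 0.9935 with the rest of its group against 0.9964 to 0.998 for the remaining 15 libraries, and the counts below are also given without it where that moved them. HRAS, the RAS gene of the fusion, whose reads from the fusion and from the cell's own copies were counted together, had levels of 470.0, 518 and 548 CPM, counts scaled to library size with TMM factors, as the lowest, median and highest of the 8 DMSO libraries. In 4OHT these levels were 810.1, 879 and 949 CPM, without overlap, and HRAS was called higher at a log2 fold change of 0.77 (SE 0.069). All levels that follow are CPM given in this order, lowest, median and highest of the 8 libraries, and fold changes are 4OHT over DMSO.

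Most of the genes tested differed between the cells with and without active RAS. Of 9991 genes with at least 10000 counts in total over the 48 libraries, 7798 (78.1%) passed an adjusted p of 0.05 in edgeR's quasi-likelihood test, 3892 (39%) higher and 3906 (39.1%) lower in 4OHT. The counts of each list below are to be read against these shares. For 6970 genes (69.8%) the call came with no overlap between the 8 and the 8 libraries. A change of at least 2-fold was fitted for 760 genes that rose (7.61%) and 1089 that fell (10.9%), and one of at least 4-fold for 253 and 369. The median log2 fold change of all genes tested was -0.0019, and that of the called genes without sign was 0.56. A CPM value is a share of a library's counts, so a change in the amount of RNA per cell was not measured, and in bulk RNA fewer cells of a type and less RNA per cell cannot be told apart.

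Most of the genes that ERK switches on rose. In a list of 30 genes of ERK feedback and output, 28 were tested, of which 22 rose, 3 fell and 3 did not pass, and the median log2 fold change of the 28 was 1.04. DUSP6, the cytoplasmic phosphatase of ERK, had levels of 53, 55.4 and 56.9 CPM in DMSO and 493, 519 and 538 CPM in 4OHT. The groups lay far apart, with a log2 fold change of 3.23 (SE 0.057) and an edgeR adjusted p of 1.31e-41. DUSP4, a nuclear phosphatase of the same family, rose by a log2 fold change of 4.17 (SE 0.14), from a median of 7.99 to one of 144 CPM. SPRY4, a Sprouty inhibitor of RAS signalling, rose by 2.51 (SE 0.087) on the log2 scale. IER3, an immediate early gene, rose by 3.27 (SE 0.07) on the log2 scale. The 3 members that fell were SPRY1, another Sprouty gene, at -1.49 (SE 0.077), EGR1, an immediate early transcription factor, at -0.97 (SE 0.10), and EPHA4, an ephrin receptor, at -0.70 (SE 0.089). EMP1, ETV5 and ELK3 did not pass, with log2 fold changes of 0.25, -0.028 and -0.077. The components of the pathway itself were divided. Of 20 genes for RAS, RAF, MEK, ERK and their scaffolds, 6 rose, 7 fell and 7 did not pass, with a median of 0.019. MAP2K1, which encodes the kinase MEK, rose by 1.32 (SE 0.05) on the log2 scale. RRAS2, a RAS relative, stood at -1.45 (SE 0.10), and KSR1, a scaffold of the kinases, at -0.99 (SE 0.11).

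Among the inhibitors of the cell cycle the INK4 gene CDKN2B showed the largest rise. CDKN2B had levels of 52.9, 58.2 and 64.7 CPM in DMSO and 273, 300.2 and 342 CPM in 4OHT, and the groups did not overlap, with a log2 fold change of 2.38 (SE 0.075) and an edgeR adjusted p of 2.23e-31. CDKN2A, which encodes p16 and ARF from overlapping transcripts that the counts do not separate, went from 35.1, 38.2 and 41.2 CPM to 56.1, 62.4 and 64.2 CPM. Its libraries did not overlap either, at a log2 fold change of 0.68 (SE 0.10). CDKN1A, the p53 target p21, went from 908, 941 and 1003 CPM to 1595, 1692 and 1798 CPM, at 0.83 (SE 0.056) on the log2 scale. Of the other 4 inhibitors and RB genes that were tested, CDKN1C stood at -3.66 (SE 0.15), CDKN1B, which encodes p27, at -1.96 (SE 0.071) and the RB relative RBL2 at -0.44 (SE 0.085), all lower, and RB1 at 0.085 (SE 0.10) with an edgeR adjusted p of 0.422. In the list of 10 inhibitors and RB genes, 7 were tested, with 3 higher, 3 lower and 1 not past the test. With a filter of 10 counts in 8 libraries all 10 gave 4 higher, 5 lower and 1 not past the test, the further higher one being CDKN2D, which encodes p19, at a log2 fold change of 0.55 (SE 0.13).

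Most genes of cell division fell. Of 38 mitotic genes 18 reached the count filter, and 16 of these fell and 2 rose, with a median log2 fold change of -2.09. A gene that is low in most groups can pass a filter on the total only through the group where it is high, so the list was also read with a filter of at least 10 counts in 8 of the 16 libraries. All 38 were then tested, 35 lower, 2 higher and 1 not past the test, among 13224 genes of which 77.8% were called. MKI67, a marker of cycling cells, had levels of 13.5, 16.8 and 25.2 CPM in DMSO and 1.06, 1.38 and 1.99 CPM in 4OHT. KIF20A, a mitotic kinesin, went from 16.8, 18.5 and 22 CPM to 0.76, 1.04 and 1.76 CPM. Neither gene's groups overlapped, and the log2 fold changes were -3.58 (SE 0.22) and -4.05 (SE 0.23). FOXM1, which drives mitotic transcription, and BIRC5, which encodes survivin, stood at -2.65 (SE 0.09) and -2.84 (SE 0.29). AURKA, a centrosome kinase, and MAD2L1, a spindle checkpoint gene, were the 2 that rose, by 0.49 (SE 0.10) and 0.39 (SE 0.10) on the log2 scale. DNA replication genes fell less uniformly, with 14 of 22 tested lower, 6 higher and 2 not past the test, and a median of -0.45. TK1, thymidine kinase, stood at -3.66 (SE 0.22), MCM6, a subunit of the replicative helicase, at -2.04 (SE 0.09) and TYMS, thymidylate synthase, at -1.56 (SE 0.065).

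Nuclear proteins tied to senescence changed in both directions. LMNB1, which encodes lamin B1 of the nuclear envelope, had levels of 17.2, 18.3 and 22.5 CPM in DMSO and 2.64, 3.63 and 4 CPM in 4OHT, without overlap, at a log2 fold change of -2.47 (SE 0.13) and an edgeR adjusted p of 4.56e-22. HMGB2, a chromatin protein, went from 17.4, 19.2 and 22.4 CPM to 1.69, 2.17 and 2.62 CPM, at -3.17 (SE 0.11) on the log2 scale. LBR, the lamin B receptor, stood at -0.94 (SE 0.10). HMGA2 and HMGA1, architectural chromatin proteins, rose by 1.96 (SE 0.29) and 0.44 (SE 0.093), and LMNB2 by 0.17 (SE 0.077). Across the 10 genes 3 rose, 6 fell and 1, H2AFZ, did not pass, at -0.084 (SE 0.062). GLB1, the lysosomal beta-galactosidase whose activity is stained in senescent cells, had levels of 101, 105 and 109 CPM in DMSO and 113, 116 and 119.9 CPM in 4OHT. These did not overlap, and the log2 fold change was 0.16 (SE 0.056) with an edgeR adjusted p of 0.0105.

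Targets of p53 were more often lower than higher, although CDKN1A rose. Of 25 tested, 6 rose, 15 fell and 4 did not pass, with a median log2 fold change of -0.32. Among all genes tested 39% were higher and 39.1% lower. BBC3, the pro-apoptotic gene that encodes PUMA, stood at -1.35 (SE 0.13), and the sestrins SESN2 and SESN1 at -0.99 (SE 0.068) and -0.98 (SE 0.061). PLK3, a stress kinase, rose by 1.27 (SE 0.065) on the log2 scale. BAX, FAS, POLH and EDA2R did not pass, with log2 fold changes of -0.028, 0.024, 0.072 and -0.044.

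**Figure D1:**
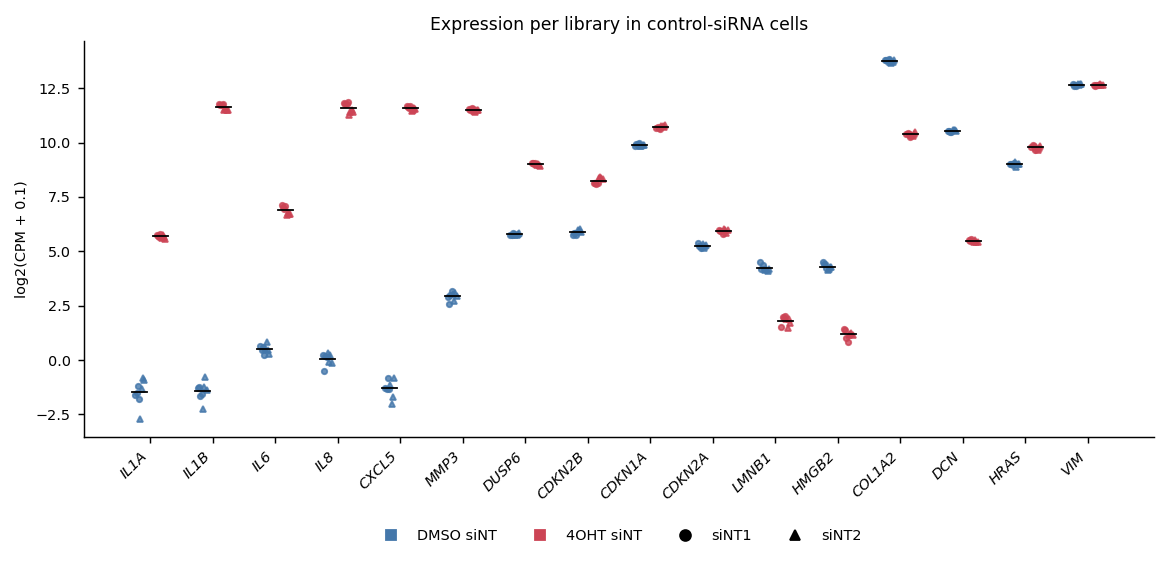
Expression of 16 named genes in each of the 16 libraries, as log2(CPM + 0.1) on the vertical axis. Blue marks are DMSO and red marks 4OHT, circles are siNT1 and triangles siNT2, and the bar is the group mean. The marks of the 2 groups do not overlap for any gene shown except VIM, whose levels in DMSO ran from 6245 to 6637 CPM and in 4OHT from 6324 to 6617 CPM.

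The secreted factors of senescence made up most of the genes that rose most above the count filter. Of the 10 genes with the largest rise among those whose groups did not overlap, 7 encode cytokines or chemokines, namely CSF3, IL1B, CXCL5, CCL20, CSF2, IL8 and CXCL1. The other 3 encode inhibitors of proteases, PI3, SERPINA9 and CST4. CSF3, CCL20, CSF2, PI3, SERPINA9 and CST4 had at most 3 counts over the DMSO libraries and passed the count filter through other libraries. The filter thus in part sets which genes are among the 10. IL1B, the beta form of interleukin-1, had levels of 0.109, 0.296 and 0.491 CPM in DMSO and 2886, 3165 and 3494 CPM in 4OHT. The lowest 4OHT library thus lay far above the highest DMSO library, at a log2 fold change of 13.41 (SE 0.22) and an edgeR adjusted p of 9.45e-43. CXCL5, a neutrophil attractant, went from 0.149, 0.304 and 0.47 CPM to 2833, 3087 and 3318 CPM, at 13.22 (SE 0.21) on the log2 scale. IL8, the older name of the neutrophil attractant CXCL8, went from 0.596, 1.01 and 1.15 CPM to 2508, 3175 and 3709 CPM, at 11.70 (SE 0.22). CXCL1, which signals through the same receptor, went from 0.181, 0.405 and 0.615 CPM to 598, 709 and 786 CPM, at 10.78 (SE 0.13). No overlap between the groups was a condition for entering these 10 genes.

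Some of these genes had almost no counts without active RAS. CSF3, the granulocyte growth factor, had 0 counts in all 8 DMSO libraries and 52227 in the 8 4OHT libraries, at least 17460-fold higher against a floor of 3 counts over the DMSO group. CCL20, a lymphocyte attractant, had 0 counts against 6638, at least 2219-fold higher. CSF2, the granulocyte and macrophage growth factor, had 3 counts against 18343, a ratio of 6132 with a 95% counting interval of 2098 to 29738. PI3, which encodes the elastase inhibitor elafin, had 1 count against 10011, SERPINA9 1 count against 6566, and CST4, a cystatin, 2 counts against 8117. Their ratios were 10040 (1802 to 396606), 6585 (1181 to 260139) and 4070 (1126 to 33616), intervals that cover counting error only.

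The promoters of 3 chemokines among the genes that rose most are shown as examples. The interleukin-1 response runs through NF-kB, whose part in their rise was not tested. Each runs over the 250 bases before the start of the gene in RefSeq (GRCh38.p14), 5′ to 3′ on the gene's strand. Capitals mark a kB match (GGNNNTTCC, searched on both strands) or an AP-1 match (TGANTCA), where AP-1 is the factor made of FOS and JUN proteins. CXCL5 lies at chr4:73998678-73998927 on the minus strand, IL8 at chr4:73740319-73740568 and CXCL1 at chr4:73869143-73869392 on the plus strand.
CXCL5: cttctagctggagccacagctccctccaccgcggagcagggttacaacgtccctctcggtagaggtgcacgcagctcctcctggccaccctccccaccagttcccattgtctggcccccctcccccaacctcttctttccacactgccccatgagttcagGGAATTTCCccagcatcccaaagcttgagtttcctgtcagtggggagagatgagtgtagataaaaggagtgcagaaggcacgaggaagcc
IL8: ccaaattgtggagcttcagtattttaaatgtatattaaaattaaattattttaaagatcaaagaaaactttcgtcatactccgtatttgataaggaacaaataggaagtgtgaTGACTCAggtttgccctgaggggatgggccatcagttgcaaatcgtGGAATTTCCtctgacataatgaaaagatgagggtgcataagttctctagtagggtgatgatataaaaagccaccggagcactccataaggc
CXCL1: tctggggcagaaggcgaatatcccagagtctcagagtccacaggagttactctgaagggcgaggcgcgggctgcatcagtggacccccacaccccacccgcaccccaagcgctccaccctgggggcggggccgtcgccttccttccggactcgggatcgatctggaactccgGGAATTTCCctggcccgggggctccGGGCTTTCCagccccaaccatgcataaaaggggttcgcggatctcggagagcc
IL8 held 1 AP-1 and 1 kB match, CXCL5 1 kB match and CXCL1 2. Of the 10 genes that rose most 7 had a promoter in the table, and 5 of these held a kB match and 1 an AP-1 match. The 3 shown were among the 5, while the promoters of IL1B and SERPINA9 held neither match. Of the 10 that fell most 7 had one, and 1 held a kB match and 0 an AP-1 match. Among all 27305 promoters of that length 17.1% held the kB letters and 6.6% the AP-1 letters, and among the 7294 of genes tested 20.3% and 3.69%. A match is a description of these letters and not a bound site.

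Most interleukins and chemokines tested rose. Of 19 interleukin and IL-1 pathway genes 11 were tested, 10 higher and 1 lower, with a median log2 fold change of 6.48. IL1A, the alpha form of interleukin-1, had levels of 0.0547, 0.273 and 0.465 CPM in DMSO and 46.8, 51.4 and 56 CPM in 4OHT. IL6 went from 1.07, 1.32 and 1.69 CPM to 102, 115 and 139.9 CPM. Both rose without overlap, by 7.49 (SE 0.21) and 6.48 (SE 0.19) on the log2 scale. TNFSF15, a cytokine of the TNF family, rose by 8.34 (SE 0.15). IL1R1, the receptor of interleukin-1, was the 1 that fell, from 126, 134 and 152 CPM to 82.4, 90.2 and 97.5 CPM, at -0.59 (SE 0.093). Of 17 chemokines 10 were tested, 9 higher and 1 lower, with a median of 9.54. Both medians were the same with the genes that had at most 3 counts in DMSO set at their bounds. The 1 that fell was CXCL12, a chemokine that stromal cells make at rest, with levels of 12.7, 14.7 and 17.1 CPM in DMSO and 0.0447, 0.0942 and 0.216 CPM in 4OHT and a log2 fold change of -7.16 (SE 0.18). With the filter of 10 counts in 8 libraries 15 interleukin genes gave 13 higher and 2 lower with a median of 4.49, and 15 chemokines gave 11 higher, 3 lower and 1 not past the test with a median of 8.25, or 7.43 with the 2 genes that had at most 3 counts in DMSO at their bounds. A gene with 0 counts in DMSO can pass either filter through the 4OHT libraries, as CCL20 did the first and CCL3 the second. The shares higher and the medians of these lists are thus in part set by the filters. CXCL1, CXCL2 and CXCL3 are near copies, and the counting could divide reads among them.

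Transcription factors of the inflammatory response changed in both directions. Of 18 tested genes for NF-kB, AP-1 and C/EBP proteins and their inhibitors 12 rose and 6 fell, with a median of 0.64. NFKBIZ, a nuclear co-factor of NF-kB, rose by 2.96 (SE 0.12) on the log2 scale, and the feedback inhibitors TNFAIP3 and NFKBIA by 2.80 (SE 0.10) and 1.71 (SE 0.054). MAFF, a small MAF factor, rose by 2.03 (SE 0.068).

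Proteases and growth factors of the secretome rose in the main, with members that fell. Of 17 matrix proteases and inhibitors tested 11 rose and 6 fell, with a median log2 fold change of 1.30. MMP3, stromelysin, had levels of 5.96, 7.75 and 8.83 CPM in DMSO and 2757, 2925 and 3056 CPM in 4OHT, without overlap, at 8.59 (SE 0.11). MMP1, interstitial collagenase, went from 122, 134 and 147 CPM to 7516, 7875 and 8381 CPM, at 5.89 (SE 0.10). SERPINB2, an inhibitor of plasminogen activators, and MMP10, another stromelysin, rose by 7.91 (SE 0.12) and 5.37 (SE 0.18) on the log2 scale. Of 22 growth factors and IGF-binding proteins 14 rose, 5 fell and 3 did not pass, with a median of 1.26. BMP2, STC1, the EGF receptor ligand EREG and the activin subunit INHBA rose by 5.91 (SE 0.19), 5.26 (SE 0.13), 4.65 (SE 0.13) and 4.26 (SE 0.085). FGF7, a growth factor for epithelia, fell from 115, 124 and 134 CPM to 17.2, 19.5 and 20.8 CPM, at -2.66 (SE 0.074). HGF, CTGF, IGFBP6 and IGFBP2 were also lower, with log2 fold changes of -1.04, -1.50, -2.46 and -0.99.

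The genes that fell most were of several kinds. HTR2B, a serotonin receptor, had levels of 10, 12.2 and 14.2 CPM in DMSO and 0, 0 and 0.0616 CPM in 4OHT. TOX, a chromatin-binding factor best known from T cells, went from 50.9, 55.3 and 56.9 CPM to 0.0616, 0.0938 and 0.194 CPM, and WNT2, a lung mesenchymal WNT ligand, from 13, 14 and 14.9 CPM to 0, 0.0135 and 0.0924 CPM. All 3 were near 0 in every 4OHT library, with log2 fold changes of -9.56 (SE 0.29), -8.90 (SE 0.16) and -8.63 (SE 0.23). These SEs were derived from the fold change and its test statistic, and can be too small at so few counts. After CXCL12, given above, came SCN7A, a sodium channel, at -6.69, SLC7A14 at -6.66, TMEM130 at -6.57, COL15A1 at -6.54, TMEM119 at -6.49 and PODN, a matrix proteoglycan, at -6.21, with SEs from 0.12 to 0.20.

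Matrix, contractile and fibroblast genes fell together with the rise of the secretome. Of 21 collagen genes tested 13 fell, 7 rose and 1 did not pass, with a median log2 fold change of -0.88. COL1A2, a chain of type I collagen, had levels of 13102, 14120 and 14861 CPM in DMSO and 1206, 1336 and 1438 CPM in 4OHT. COL3A1, of type III collagen, went from 5632, 5876 and 6271 CPM to 537, 596 and 636 CPM. The groups lay apart in both, at -3.39 (SE 0.074) and -3.30 (SE 0.069). COL14A1 stood at -5.84 (SE 0.12). COL6A1, of the microfibrillar type VI collagen, did not pass, with levels of 6891, 7045 and 7467 CPM against 6755, 7100 and 7235 CPM. Of 24 contractile genes and targets of TGF-beta 21 fell, 2 rose and 1, TPM1, did not pass, with a median of -1.26. LMOD1, leiomodin, TAGLN, SM22, ACTG2, an actin of smooth muscle, and CNN1, calponin, stood at -5.66 (SE 0.15), -3.28 (SE 0.12), -3.18 (SE 0.10) and -2.98 (SE 0.13). SMTN, smoothelin, and TPM3, a tropomyosin, rose by 2.10 (SE 0.10) and 0.45 (SE 0.054).

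Of 12 markers of fibroblasts 11 fell and 0 rose, with a median of -1.59. Their summed level ran from 53404 to 60571 CPM in the DMSO libraries and from 14864 to 15649 CPM in the 4OHT libraries. DCN, the proteoglycan decorin, had levels of 1423, 1482 and 1546 CPM in DMSO and 42.8, 44.8 and 47.5 CPM in 4OHT, at -5.05 (SE 0.059), and LUM, lumican, stood at -2.37 (SE 0.11). VIM, the intermediate filament of mesenchymal cells, was the 1 that did not pass, at -0.0041 (SE 0.04). Of 23 defining markers of epithelial, endothelial, blood, nerve and muscle cells 22 were in the table, 16 of these stayed under 1 CPM in all 16 libraries, and 5, among them CD3E, MYOD1, MYOG and NKX2-1, were at 0 in all. Their summed level was 43.5 to 54.9 CPM in DMSO and 78.4 to 91.4 CPM in 4OHT. The lysosomal protein CD68, which blood macrophages share with other cells, made up most of both, with 36, 40.5 and 47.5 CPM against 71.2, 75.5 and 83.6 CPM, while PTPRC, which marks all white blood cells, stayed at or below 0.112 CPM in each library. The part of these markers in the other changes was not tested.

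Genes for making ribosomes and genes for the ribosome's own proteins went opposite ways. Of 47 ribosome biogenesis genes tested 42 rose, 0 fell and 5 did not pass, with a median log2 fold change of 0.77. BOP1, a factor of the large subunit, had levels of 3.13, 4.27 and 4.59 CPM in DMSO and 9.96, 11.2 and 13.1 CPM in 4OHT, at 1.44 (SE 0.14). LYAR, NOP16 and RRP12, nucleolar proteins, rose by 1.56 (SE 0.062), 1.47 (SE 0.064) and 1.45 (SE 0.067). The 5 that did not pass were TBL3, FBL, NPM1, HEATR1 and UTP20, between -0.11 and 0.14. Of 68 cytosolic ribosomal protein genes 42 fell, 3 rose and 23 did not pass, with a median of -0.29. RPL3 went from 1263, 1319 and 1426 CPM to 832, 858 and 889 CPM without overlap, at -0.64 (SE 0.088). The 3 that rose, RPS24, RPL35A and RPS13, did so by 0.19, 0.14 and 0.12 on the log2 scale. Ribosomal protein genes have many near-identical copies in the genome, so their counts are uncertain.

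Other groups were mixed, and several lay near the shares of all genes tested, of which 39% were higher and 39.1% lower. Of 38 lysosomal genes 21 rose, 14 fell and 3 did not pass, with CTSS, the protease cathepsin S, at 6.00 (SE 0.094) and CTSF, cathepsin F, at -1.58 (SE 0.13). Of 23 genes of the ER stress and ATF4 response 10 rose and 10 fell. The serine and asparagine enzymes PHGDH, PSAT1 and ASNS were among those that fell, at -2.96 (SE 0.16), -2.49 (SE 0.17) and -2.39 (SE 0.16), and PHGDH went from 185, 198 and 209.8 CPM to 21.9, 25.6 and 27.3 CPM. DDIT3, which encodes CHOP, stood at -1.84 (SE 0.14). Of 22 cholesterol synthesis genes 10 rose, 3 fell and 9 did not pass, with NSDHL at 1.06 (SE 0.085) and LSS at -0.83 (SE 0.061). Of 19 antioxidant genes of NRF2 5 rose, 10 fell and 4 did not pass, with SOD2, the mitochondrial dismutase, at 2.43 (SE 0.076) and SLC7A11, the cystine transporter, at -1.46 (SE 0.16).

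Most interferon-stimulated genes above the count filter were lower, and several of the scarce ones were higher. Of 30 genes 15 reached the count filter, 11 lower, 1 higher and 3 not past the test, with a median log2 fold change of -0.48. With 10 counts in 8 libraries as the filter all 30 gave 13 lower, 6 higher and 11 not past the test. IFIT1, an antiviral RNA-binding protein, had levels of 12, 13.6 and 16 CPM in DMSO and 1.75, 2.8 and 3.63 CPM in 4OHT. IFIT2, of the same family, stood at -1.62 (SE 0.21) and SAMD9 at -2.01 (SE 0.14). IRF1, a transcription factor, was the 1 above the count filter that rose, by 0.96 (SE 0.093). The 5 scarce genes that rose were OASL at 5.23 (SE 0.37), RSAD2 at 1.88 (SE 0.27), HERC5 at 1.67 (SE 0.23), ISG20 at 1.14 (SE 0.22) and IFI27 at 0.94 (SE 0.26) on the log2 scale.

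**Figure D2:**
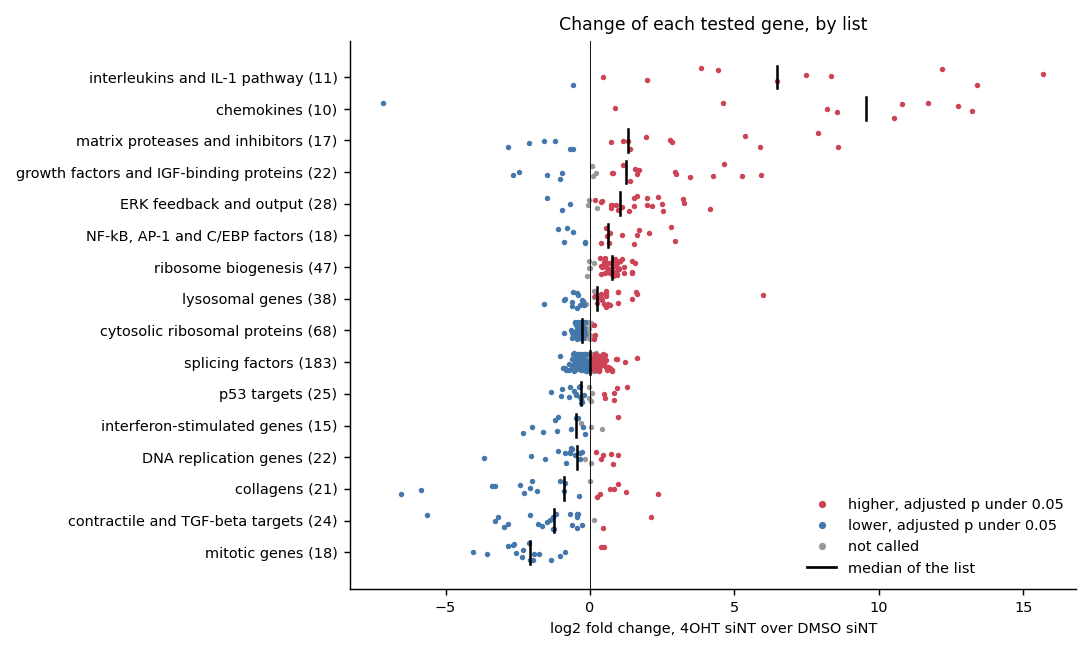
Log2 fold change of 4OHT siNT over DMSO siNT for each tested gene of 16 lists, with the number tested in parentheses. Red points rose and blue points fell past an adjusted p of 0.05, grey points did not pass, and the black bar is the median of the list. The medians run from 9.54 for the chemokines to -2.09 for the mitotic genes.

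The mRNAs of splicing factors changed little and in both directions. The list used here held 187 genes of the siRNA library that the study screened, and 183 of them were tested, of which 61 rose, 66 fell and 56 did not pass, with a median log2 fold change of 0.003. A change of at least 2-fold was fitted for 3 of them, against 1849 of all 9991 genes. SNRPA1, a U2 snRNP protein, had levels of 16.3, 18.1 and 20.7 CPM in DMSO and 52.8, 55.6 and 59.4 CPM in 4OHT, without overlap, and rose by 1.62 (SE 0.058). SRPK1, the kinase of SR proteins, rose by 1.21 (SE 0.034). HSPB1, a small heat shock protein that is in the library, stood at -1.05 (SE 0.14). Of the 10 subunits of SF3a and SF3b, which recognise the branch point, 3 rose and 2 fell. SF3A1, SF3B4 and AC008073.5, the entry for SF3B6, were higher at 0.31, 0.21 and 0.21, and SF3A2 and SF3B3 lower at -0.48 and -0.088. SF3B1, with 311, 362 and 396 CPM against 315, 327 and 339.8 CPM, did not pass, at -0.13 (SE 0.076) and an edgeR adjusted p of 0.119. RBM39, a U2AF-related factor, went from 158, 172 and 185 CPM to 115, 120.4 and 127 CPM and stood at -0.50 (SE 0.048). The SEs of SF3B1 and RBM39 came from the fit over all 48 libraries, in part of which these genes were themselves the siRNA targets. SUPT5H, the elongation factor SPT5, had levels of 139, 152 and 164 CPM in DMSO and 219, 234 and 244 CPM in 4OHT and rose by 0.63 (SE 0.10), while CHD4, a chromatin remodeller, stood at 0.012 (SE 0.05) with an edgeR adjusted p of 0.83.

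Regulators that choose exons changed in both directions. For comparison, 39% of all 9991 genes tested were higher and 39.1% lower, and the SR protein genes and splicing kinases lay near these shares. Of 13 SR protein genes, which mostly promote exon inclusion, 5 rose, 5 fell and 3 did not pass. The lower ones were SFRS6 at -0.55, SFRS3 at -0.45, SFRS11 at -0.28, SFRS4 at -0.22 and SFRS7 at -0.16, and the higher ones TRA2A at 0.39, SFRS9 at 0.37, SRSF8 at 0.28, SFRS13A at 0.18 and SRSF5 at 0.16, where SFRS is the older form of SRSF. Of 21 hnRNP and PTB genes, which often repress exons, 14 fell, 4 rose and 3 did not pass, with a median log2 fold change of -0.26. PTBP2, the PTB protein best known from neurons, had levels of 15.5, 17.2 and 18.3 CPM in DMSO and 6.08, 7.05 and 7.62 CPM in 4OHT, and stood at -1.29 (SE 0.064). HNRNPA1, HNRNPA0 and HNRNPH3 stood at -0.86 (SE 0.065), -0.83 (SE 0.071) and -0.72 (SE 0.04). PTBP1, a repressor with a known part in the secretome of senescent cells, rose from 239, 257 and 261 CPM to 293, 305 and 318 CPM, by 0.26 (SE 0.033). HNRNPAB, ROD1 (the older name of PTBP3) and HNRNPL rose by 0.31, 0.20 and 0.15 on the log2 scale. Of 13 tested regulators typical of single tissues 8 fell, 3 rose and 2 did not pass, with RBMS3 at -2.39 (SE 0.11) and RBM24 at -1.06 (SE 0.14) the lowest. Among 11 splicing kinases 4 rose, 4 fell and 3 did not pass, with DYRK3 at 1.21 (SE 0.11) and CLK1 at -1.09 (SE 0.075) at the ends beside SRPK1. Of 26 elongation genes 12 rose, 7 fell and 7 did not pass, with ELL at 0.93 (SE 0.057) and LARP7, which holds the inhibitory 7SK particle, at -0.70 (SE 0.06).

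Splicing was read as PSI, the per cent of a gene's mRNAs that include an exon, keep an intron or use a splice site, with limma on the logit scale and a change of at least 5 percentage points for a call. A far smaller share of events than of genes was called, and the genes needed no minimum change. Of 7673 exons tested 123 (1.6%) were called, 37 with higher and 86 with lower inclusion in 4OHT, in 107 genes. For 68 of them (0.886%) the 2 groups did not overlap, 19 higher and 49 lower. The median change was 12 points among the higher and -13.1 points among the lower exons. Without replicate 3 the count of higher exons dropped to 24, and without a minimum difference 68 exons were higher and 142 lower at an adjusted p under 0.05. For all 123 the change had the same sign in the siNT1 and in the siNT2 libraries, both of which had entered the test.

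The largest changes were a swap of a pair of neighbouring exons of TPM1, which encodes the actin-binding tropomyosin 1. TPM1 carries pairs of exons of which an mRNA takes one or the other, and the pair is shown because its members moved in opposite directions by similar amounts. Both exons are 76 bases of coding sequence on the plus strand, the 5′ one at chr15:63353397-63353472 and the 3′ one at chr15:63353912-63353987 (GRCh37). Capitals mark the positions at which they differ.
TPM1 5′ exon: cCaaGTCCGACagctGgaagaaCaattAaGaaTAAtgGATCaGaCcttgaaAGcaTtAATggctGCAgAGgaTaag
TPM1 3′ exon: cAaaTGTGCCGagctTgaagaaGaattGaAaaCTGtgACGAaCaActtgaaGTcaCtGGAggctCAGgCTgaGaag
The exons were identical at 43 of 76 positions (56.6%). The 5′ exon had PSI of 29.7, 35.8 and 43% in DMSO and 77.5, 81.7 and 86.7% in 4OHT, as lowest, median and highest library, on 382 to 731 reads per library. The 3′ exon had PSI of 61.2, 66.1 and 69.1% in DMSO and 13.2, 18.3 and 21.4% in 4OHT, on 225 to 665 reads. Neither pair of groups overlapped, with changes in mean PSI of 45.6 and -47.4 points and limma adjusted p of 6.11e-16 and 1.05e-18. The sum of the 2 PSI values lay between 95.6% and 104.7% in every library, so the values of the pair are not independent. A further 126-base exon near the start of the gene rose from 88.4, 91.2 and 92.9% to 95.6, 96.5 and 97.7%. The level of the gene itself did not pass, with 189, 199 and 248 CPM against 206, 226 and 238 CPM, a log2 fold change of 0.14 (SE 0.076) and an edgeR adjusted p of 0.0904.

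Further genes held 1 called exon that rose and 1 that fell, and of these ACTN1, H2AFY and POSTN are given, named after their values were seen. In ACTN1, which encodes the actin crosslinker alpha-actinin 1, the pair lies in the part that codes for the calcium-binding EF hands, on the minus strand at chr14:69345706-69345786 and chr14:69345175-69345240 (GRCh37).
ACTN1 81-base exon: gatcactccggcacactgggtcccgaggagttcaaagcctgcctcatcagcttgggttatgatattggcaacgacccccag
ACTN1 66-base exon: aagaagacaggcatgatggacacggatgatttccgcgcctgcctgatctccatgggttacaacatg
The 81-base exon rose from 86.2, 90.5 and 93.9% to 96.3, 97.7 and 98.7%. The 66-base exon went from 8.97, 12.7 and 13.6% to 2.18, 2.91 and 4.01%, so the exon that was the rarer one in DMSO was rarer still in 4OHT. Their changes were 7.4 and -9.19 points, with limma adjusted p of 8.31e-08 and 1.45e-11.

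H2AFY encodes the histone variant macroH2A1, whose pair of alternative exons lies in the macro domain. Its 87-base exon had PSI of 64.8, 72.2 and 78.8% in DMSO and 37, 43.5 and 45.5% in 4OHT, and its 100-base exon 16.8, 22.6 and 25.8% and 39.8, 46.2 and 49.6%. Neither exon's groups overlapped, and the changes were -29 and 23.6 points with limma adjusted p of 1.79e-08 and 1.01e-07. In DMSO the 87-base exon was the major one in every library, and in 4OHT the ranges of the 2 exons overlapped. In POSTN, which encodes the matrix protein periostin, a 90-base exon rose by 12.9 points and an 84-base exon fell by 6.79 points, again without overlap. The PSI values of the pair added up to 83.6% to 97.6% in H2AFY and 99.6% to 103.8% in ACTN1.

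**Figure D3:**
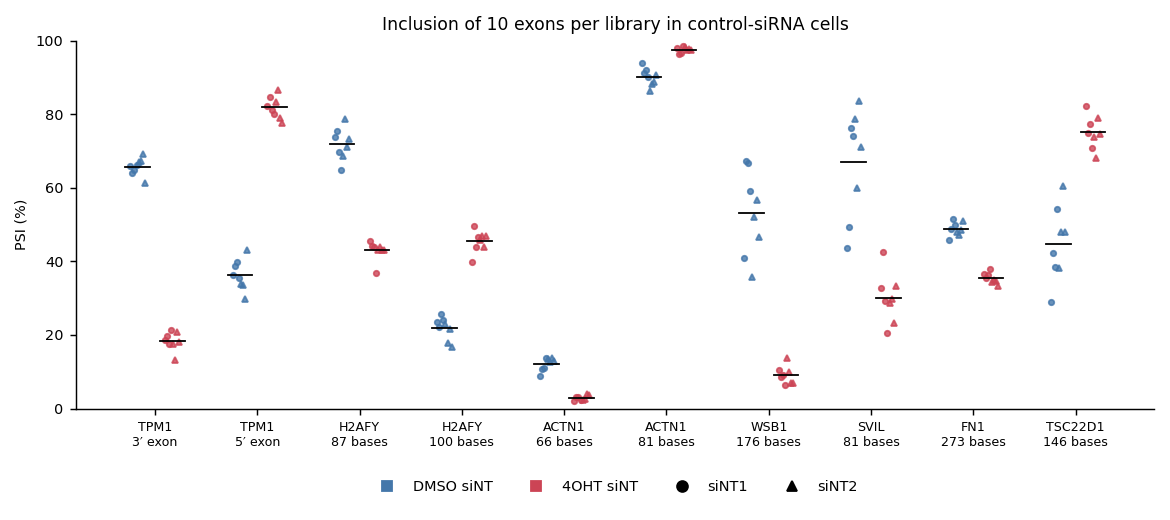
Inclusion of 10 exons in each of the 16 libraries, as PSI in per cent on the vertical axis. Blue marks are DMSO and red marks 4OHT, circles are siNT1 and triangles siNT2, and the bar is the group mean. The pairs of TPM1, H2AFY and ACTN1 move in opposite directions, and no exon shown has overlapping groups.

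The other exons among the 4 largest rises and the 4 largest falls without overlap were in 6 genes. A 176-base exon of WSB1, a subunit of a ubiquitin ligase, had PSI of 35.9, 54.3 and 67.2% in DMSO and 6.51, 8.85 and 13.8% in 4OHT, a change of -44.1 points with a limma adjusted p of 1.73e-10, on 61 to 125 reads. An 81-base exon of SVIL, which encodes the actin-binding protein supervillin, went from 43.7, 72.7 and 83.7% to 20.7, 29.5 and 42.6%. SVIL had 2 further called exons, of 930 and 171 bases, at -31.6 and -30.8 points. A 36-base exon of the cadherin gene FAT1 went from 76.5, 82.2 and 85.7% to 38.2, 48.4 and 53%. On the rising side, an exon of 67 bases of C14orf153 went from 7.69, 16 and 26% to 37.4, 45 and 61%. TSC22D1, a TGF-beta-induced regulator, had an exon of 146 bases at 29.1, 45.1 and 60.4% in DMSO and 68.1, 74.7 and 82.2% in 4OHT. RAI14, an actin-binding ankyrin-repeat protein, had one of 87 bases at 17.1, 25.5 and 27.9% and 47.2, 53 and 59.2%. A limma adjusted p under 0.05 and no overlap between the groups were conditions for this choice of exons. The exons lie at chr17:27307744-27307919 in WSB1, chr10:29535989-29536069 in SVIL, chr4:186590368-186590403 in FAT1, chr14:103692359-103692425 in C14orf153, chr13:44436504-44436649 in TSC22D1 and chr5:34813574-34813660 in RAI14, in the coordinates of the event table, which lie in GRCh38.

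Of the 107 genes with a called exon 13 had more than 1, and further ones of these are named here, after their values were seen. PSPH, the phosphatase of serine synthesis, had 3 lower exons of 149, 146 and 135 bases, with changes of -29.7, -26.4 and -13 points and no overlap in any. OBFC2A, a single-strand DNA-binding protein, had 2 lower exons of 104 bases, at -26.1 and -12.2 points. C14orf153 had a second higher exon, of 131 bases, at 23.8 points. C12orf10, the autophagy gene BECN1, ACIN1 and TRIM28 had 2 lower exons each, with changes from -20.7 to -6.51 points.

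In a list of 47 genes with well-studied alternative exons, 27 had a tested exon and 5 of these (18.5%) had at least 1 called exon, TPM1 among them. Of all 3318 genes with a tested exon 107 (3.22%) had one. The list was picked for alternative exons, and these shares were not matched for PSI in DMSO. Among the 447 tested exons with a DMSO PSI from 10% to 90%, 24 were called higher and 52 lower. FN1, fibronectin, is made with or without the extra domain B, a whole fibronectin repeat that 1 exon of 273 bases encodes, at chr2:216257654-216257926 on the minus strand (GRCh37).
FN1 exon of extra domain B: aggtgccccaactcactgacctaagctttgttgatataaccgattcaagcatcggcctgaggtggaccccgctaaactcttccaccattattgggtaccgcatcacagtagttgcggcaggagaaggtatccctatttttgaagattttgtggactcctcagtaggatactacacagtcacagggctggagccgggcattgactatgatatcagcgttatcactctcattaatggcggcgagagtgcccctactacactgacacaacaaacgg
Its PSI was 45.7, 48.7 and 51.5% in DMSO and 33.3, 35.2 and 37.8% in 4OHT, on 656 to 3086 reads per library. The groups did not overlap, the change was -13.4 points with a limma adjusted p of 0.000336, and the FN1 gene itself fell from 16738, 17602 and 22117 CPM to 6151, 6855 and 7388 CPM, at -1.40 (SE 0.11). CD44, the hyaluronan receptor, had an exon of 186 bases at 4.1, 5.57 and 9.72% and 13.4, 14.8 and 17.4%. NUMB, an inhibitor of NOTCH, had its 144-base exon of the proline-rich region at 4.76, 9.19 and 13.5% and 17.2, 21.1 and 23.5%, on 34 to 189 reads. Both were higher without overlap, by 9.21 and 12 points. TNC, tenascin, had a 273-base exon at 88.4, 97.5 and 100% and 82.4, 88.7 and 92.9%, where the groups overlapped, with a change of -8.08 points. The genes INSR, VEGFA and NUMB of this list changed in expression, at -1.60 (SE 0.11), 1.39 (SE 0.093) and 1.36 (SE 0.081), and over the list 14 rose, 22 fell and 11 did not pass.

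The median PSI in DMSO was 99.5% over the 7673 exons tested, 29.2% over the 37 that rose and 68.5% over the 86 that fell. A call needs a change of 5 points, so an exon near 100% could not be called higher nor one near 0% lower, and these medians are in part set by the rule. Their median lengths were 105, 90 and 122.5 bases. A length that is a multiple of 3, which keeps the reading frame when an exon is left out, was found in 42.3% of the exons tested, 51.4% of those that rose and 59.3% of those that fell. Among exons with a DMSO PSI from 10% to 90% these shares were 55.9% of 447, 54.2% of 24 and 63.5% of 52. Of the genes with a called exon 105 were tested for expression, and 81 of these (47 higher and 34 lower) were called. That was 77.1%, against 75.5% of the 3272 genes with a tested exon.

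Intron retention changed at few sites. Of 5248 introns tested 5 (0.0953%) were called, 2 with more and 3 with less retention in 4OHT. At an unadjusted p under 0.05 limma gave 123 higher and 217 lower. A 405-base intron of FKBP10, a collagen chaperone (chr17:41821818-41822222, GRCh38), had PSI of 5.06, 6.09 and 8.97% in DMSO and 13.8, 15.4 and 17.9% in 4OHT, on 343 to 551 reads. An intron of 131 bases in AGRN, the proteoglycan agrin (chr1:1046266-1046396), went from 1.22, 2.39 and 3.12% to 5.3, 6.38 and 11%. Both rose without overlap, with a limma adjusted p of 8.59e-05 each. DUS1L, a tRNA-modifying enzyme (chr17:82058819-82059947), had an intron that went from 17.4, 19.6 and 24% to 3.47, 8 and 14.8%, on 24.1 to 70.1 reads. The introns of CTTN, cortactin, and OTUB1, a deubiquitinase, fell by 19 and 8.46 points with groups that overlapped. The count of lower introns was 7 in place of 3 without DMSO siNT1 replicate 1, and that of higher introns 1 in place of 2.

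Splice site choice changed at 1 of 547 alternative 3′ sites (0.183%) and at 3 of 371 alternative 5′ sites (0.809%). The 3′ site is in PSAP, the precursor of the lysosomal saposins (chr10:71821876-71822013, GRCh38), with PSI of 11.3, 13.9 and 20.4% in DMSO and 4.14, 6.34 and 7.48% in 4OHT, without overlap, a change of -9.08 points with a limma adjusted p of 1.49e-06. The 5′ sites are in SRSF5, an SR protein, with 33.3, 64.7 and 71.4% and 66.7, 81 and 95.1%, and in FAM126A and SH2B1. Their changes were 20.8, 10.4 and 12.7 points, all higher with groups that overlapped, a limma adjusted p of 0.0354 each and as few as 21 reads in a library. Without DMSO siNT1 replicate 1 limma called 0 alternative 5′ sites, with 47 at an unadjusted p under 0.05.

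Averaged over the exons tested, inclusion was lower in 4OHT by a small amount. Mean PSI over the 7673 exons was 83.69% ± 0.0197 (SD, n = 8) in DMSO, with a range from 83.66% to 83.72%. In 4OHT it was 83.50% ± 0.0509 (SD, n = 8), with a range from 83.43% to 83.58%. The difference of -0.192 points had a two-sided exact permutation p of 0.0001554, the smallest that 12870 splits of 8 against 8 libraries can give. Within 4OHT the 4 siNT1 libraries lay at 83.50% to 83.58% and the 4 siNT2 libraries below them, at 83.43% to 83.48%. The splits above took no account of the siRNA, so their p can overstate the evidence. The difference was -0.148 points with siNT1 alone and -0.237 points with siNT2 alone, each with an exact permutation p of 0.0286. The size depended on which exons were averaged. It was -0.0631 points without the filter on the range of PSI and -0.310 points with the filters applied to the 16 libraries alone, each with the same exact permutation p of 0.0001554, and the median over exons, taken in place of the mean, differed by 0 points. Mean PSI of the 5248 introns was 1.37% ± 0.264 (SD, n = 8) in DMSO and 1.21% ± 0.0624 (SD, n = 8) in 4OHT, a difference of -0.161 points with an exact permutation p of 0.114. It was -0.0545 and -0.305 points under the same 2 choices, with exact permutation p of 0.0976 and 0.202. DMSO siNT1 replicate 1 was the lowest of all, at 0.904%, and without it the difference was -0.228 points with an exact permutation p of 0.00435.

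**Figure D4:**
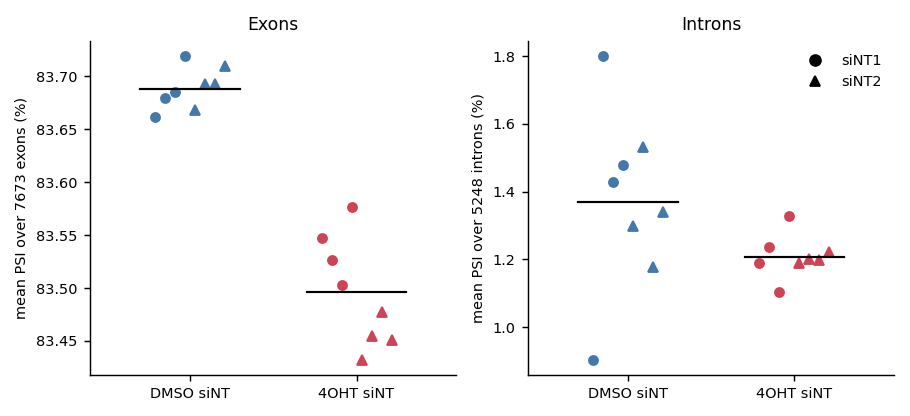
Mean PSI per library over the exons tested (left) and the introns tested (right), in per cent, with axes that do not start at 0. Blue marks are DMSO and red marks 4OHT, circles are siNT1 and triangles siNT2, and the bar is the group mean. The exon means of the groups do not overlap, and the intron means do, with 1 DMSO library at 0.904%.

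The same contrast of 4OHT with DMSO in cells given siRNAs against SF3B1 or RBM39, of 8 against 8 libraries each, shared no library with the one above. Of the 760 genes at least 2-fold higher with siNT, 758 (99.7%) changed in the same direction and 755 were also called higher in siSF3B1 cells, where 37.6% of all genes were called higher. In siRBM39 cells, where 39.1% were called higher, all 760 had the same direction and 758 were called. Of the 1089 genes at least 2-fold lower, 1080 (99.2%) had the same direction and 1068 were called in siSF3B1 cells, where 38.1% of all genes were called lower. In siRBM39 cells, where 36.4% were, all 1089 had the same direction and 1087 were called. Over all genes called with siNT, 91.2% of the higher and 91.4% of the lower genes had the same direction in siSF3B1 cells, with 156 and 143 called the opposite way, and 97.7% and 97% in siRBM39 cells, with 22 and 24 called the opposite way. Over the 760 and 1089 genes at least 2-fold changed with siNT, the median log2 fold changes of the higher genes were 1.53 in siNT, 1.43 in siSF3B1 and 1.44 in siRBM39 cells, and those of the lower genes -1.59, -1.47 and -1.40. Of the genes named above, IL1B stood at 12.34 in siSF3B1 and 11.19 in siRBM39 cells, IL6 at 5.07 in siSF3B1 and 4.62 in siRBM39 cells and LMNB1 at -1.21 in siSF3B1 and -2.11 in siRBM39 cells, while IL1R1, lower with siNT, stood at 1.06 in siSF3B1 and -0.023 in siRBM39 cells. These differences between siRNAs were not tested.

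The called exons were read in the same cells. Of the 37 higher exons 28 had the same sign in siSF3B1 and 33 in siRBM39 cells, and 14 were called higher in each. Of the 86 lower exons 83 and 81 had the same sign, and 49 were called lower in each. The shares of all exons called there were 0.717% higher and 3.81% lower in siSF3B1 cells and 0.443% higher and 1.62% lower in siRBM39 cells. Signs over all exons in these cells are not given, so the same-sign counts lack a background. The TPM1 pair changed by 34.5 and -38.1 points in siSF3B1 cells and by 37.2 and -36.9 points in siRBM39 cells. The 87-base exon of H2AFY changed by -31.1 points in siSF3B1 and -22.8 points in siRBM39 cells. The exon of WSB1 changed by -0.815 points in siSF3B1 and -6.82 points in siRBM39 cells. The differences between siRNAs in these changes were not tested. Mean PSI of exons was lower in 4OHT by 1.07 points in siSF3B1 cells (exact permutation p = 0.00699) and by 0.379 points in siRBM39 cells (exact permutation p = 0.0001554), and mean PSI of introns differed by 0.547 points (exact permutation p = 0.00109) and -0.117 points (exact permutation p = 0.127).

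**Figure D5:**
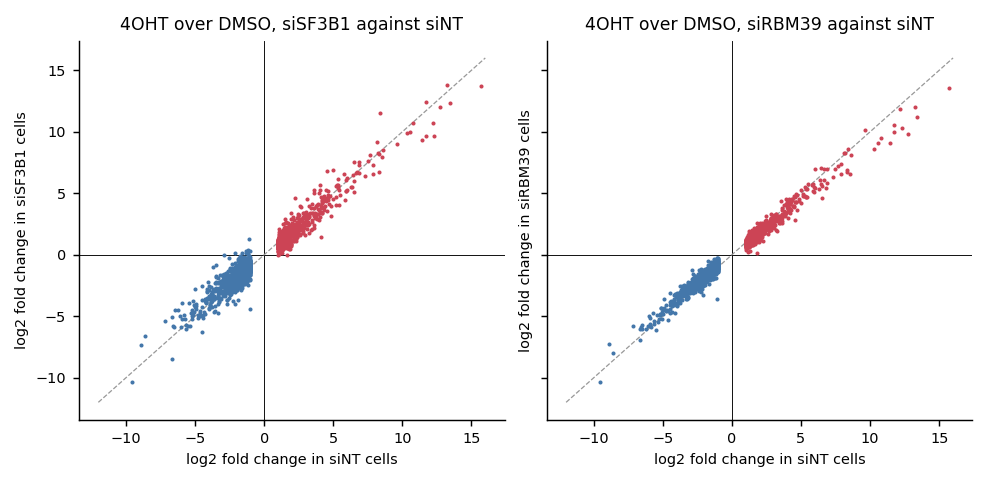
Log2 fold change of 4OHT over DMSO in siSF3B1 cells (left) and siRBM39 cells (right) against that in siNT cells, for the 760 genes at least 2-fold higher (red) and the 1089 at least 2-fold lower (blue) with siNT. Each point is a gene and the dashed line marks equal change. Of the red points 758 and 760, and of the blue points 1080 and 1089, lie on the same side of 0 on both axes.

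The 4OHT response was also compared between the 2 non-targeting siRNAs. A difference in the 4OHT change between siNT2 and siNT1 passed an adjusted p of 0.05 in edgeR for 3 of 9991 genes, against 265 at an unadjusted p under 0.05. They were TIMP3, an inhibitor of metalloproteinases, NPTX1, a neuronal pentraxin, and CSF1, the macrophage growth factor, named after their values were seen. All 3 fell with both siRNAs. Fitted with 1 siRNA at a time, the log2 fold changes with siNT1 and siNT2 were -2.94 and -2.72 for TIMP3, -4.21 and -3.81 for NPTX1 and -1.90 and -1.58 for CSF1.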

How the data were processed

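RNA-seq libraries were made after mRNA capture from 48 samples, and 16 libraries given a non-targeting siRNA are reported here. The authors mapped and quantified reads with vast-tools and deposited raw read counts per gene (a table of 19847 entries) and, as percent values, the PSI of exons, introns and alternative splice sites with quality fields that hold coverage and read numbers. The submitters' processing notes name hg19, edgeR and limma, while the coordinates of the event table lie in GRCh38. A table of CPM values normalised by the authors was not used, since the raw counts were at hand. The members and lists were chosen with earlier results of these data known.

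Genes with at least 10000 counts in total over the 48 libraries were fitted with edgeR 4.0.16 (quasi-likelihood, TMM) in R 4.3.3, with all 6 groups of siRNA target and treatment in 1 fit and the contrast of 4OHT siNT with DMSO siNT. Genes called had a Benjamini-Hochberg adjusted p under 0.05. The SE given for a log2 fold change is its absolute value over the square root of the test's F statistic. CPM are TMM-scaled. Events needed the coverage class VLOW or better in all 48 libraries. Their PSI had to span 5 points or more, and introns whose balance p was under 0.05 were left out. They were fitted with limma 3.58.1 on the logit of 0.01 + 0.98 times the PSI fraction, and calls needed an adjusted p under 0.05 and a difference of at least 5 points. Mean PSI was compared by an exact permutation test. Both fits were tested on simulated data, in which 100% and 99% of 100 genes changed by 0.5 and 1 on the log2 scale were recovered among 9991 with 9 false calls in all, and 86% and 100% of 100 exons changed by 10 and 20 points among 7673. The simulated exons had 50 reads in each library and no spread between libraries beyond counting, so recovery among the real events can be lower. Python 3.11.15, numpy 2.4.6, scipy 1.17.1, pandas 2.3.3 and matplotlib 3.10.9 were used for the rest.

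Depth was 32346632 to 45855425 counts per library, and counting intervals do not include variation between cultures. Of 878 genes in 31 lists, 842 were found by current symbol, 33 by an older name and 3 not at all. Genes named were the 10 with the largest rise and the 10 with the largest fall without overlap of the groups, up to 4 called members with the largest change of each list, any member where 5 or fewer are counted in a direction, and a set always given (CDKN1A, CDKN2A, CDKN2B, LMNB1, IL1A, IL1B, IL6, IL8, HRAS, DUSP6, SF3B1, RBM39, SUPT5H, CHD4, PTBP1 and GLB1). Levels of further list members are given as examples. Events named were the 4 with the largest rise and the 4 with the largest fall of each type without overlap, and those in genes of known alternative exons. Exon sequences came from GRCh37, in which 97 of the 123 called exons matched 1 annotated exon, and promoters from RefSeq. Alternatives were DESeq2 1.42.0, limma-voom, other filters, single siRNAs, a replicate block and left-out libraries. A few list members and 1 exon pair are not reported here.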

Additional observations from a re-analysis of the deposited data

Results flagged for a closer look

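Of 116 groups of 8 libraries examined, for named genes, named events and mean PSI, 5 held 1 library far from the other 7, and chance alone gives about 1 in 20. PI3 had 0.0268 CPM in DMSO siNT1 replicate 4 and 0 in the other DMSO libraries. SERPINA9 had 0.0274 CPM in DMSO siNT2 replicate 1 and 0 in the others, and CST4 had 0.0517 CPM in DMSO siNT2 replicate 3 and 0 in the others. These are values of 1 or 2 counts. HTR2B had 0.0616 CPM in 4OHT siNT1 replicate 1, against 0 to 0.0270 CPM in the other 4OHT libraries. The alternative 5′ site of FAM126A had a PSI of 86.96% in 4OHT siNT2 replicate 4, against 95.24% to 100% in the other 4OHT libraries.

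The change with 4OHT differed between the 2 non-targeting siRNAs in edgeR's interaction test for 3 genes. The log2 fold change with siNT2 minus that with siNT1 was 0.235 for TIMP3 (adjusted p = 0.00586), 0.422 for NPTX1 (adjusted p = 0.000115) and 0.352 for CSF1 (adjusted p = 0.00217), with the fall smaller with siNT2 in each.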

How the results depend on the processing

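With DESeq2 or limma-voom in place of edgeR, 1847 and 1845 of the 1849 genes called with at least 2-fold change were called again. The counts of such genes moved with the filter on low counts, to 1922 higher and 2607 lower with at least 1 count in total and to 1332 and 2080 with 10 counts in 8 siNT libraries. With only the 16 siNT libraries fitted, 4396 genes were higher and 4498 lower, of which 752 and 1099 changed at least 2-fold. Leaving out each replicate number, or DMSO siNT1 replicate 1, gave 756 to 785 higher and 1075 to 1099 lower at 2-fold, and 3612 to 3889 higher and 3599 to 4017 lower in all. The replicate block gave 3981 and 3964, and among the 231 genes and 44 events followed none changed direction: of 3465 comparisons for the genes 3357 kept their side of the threshold, 67 crossed it upwards and 41 downwards, and of 728 for the events 606 kept it and 122 lost it. Replicate numbers did not pair the libraries, with correlations of deviations between equal numbers from -0.364 to 0.279 and the own number best in 3 of 8, so the replicate block (763 and 1085 genes at 2-fold, 33 and 81 exons, 2 and 2 introns, 1 alternative 3′ site and 3 alternative 5′ sites) is given here only.

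The difference between the siRNAs was called for 6 genes with DESeq2, 13 with only the 16 libraries fitted, 1 with the replicate block and 1 to 3 with libraries left out. Exons with higher PSI numbered 68 without a minimum difference, 23 with one of 10 points, 16 with siNT1 alone, 23 with siNT2 alone and 24 to 39 with libraries left out. Exons with lower PSI numbered 142 without a minimum, 43 with siNT1 alone and 70 to 85 with libraries left out. Of the 123 exons 111 were called again with the replicate block and 113 without DMSO siNT1 replicate 1.

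The few calls of the other events depended on most settings. Introns with higher PSI numbered 4 with the plain logit, 0 with filters over the 16 libraries (178 at an unadjusted p under 0.05 in limma), 29 without the balance filter, 4 without a minimum, 0 with 10 points (123 unadjusted), 0 with siNT1 alone (90 unadjusted), 1 with siNT2 alone and 1 to 3 with libraries left out. Introns with lower PSI numbered 1 at coverage LOW, 0 with filters over the 16 libraries (299 unadjusted), 35 without the balance filter, 6 without a minimum, 1 with siNT1, 0 with siNT2 (151 unadjusted) and 1 to 7 with libraries left out. Alternative 3′ sites numbered 2 with the plain logit, in points, with filters over the 16 libraries and without a minimum, 0 with 10 points (62 unadjusted) and 1 to 3 with libraries left out. Alternative 5′ sites numbered 6 with the plain logit, 7 in points, 1 with filters over the 16 libraries, and 0 at coverage LOW (27 unadjusted), with only the 16 libraries (50), siNT1 (39) or siNT2 alone (37), and 0 to 3 with libraries left out.

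Mean PSI of exons differed by 0 points by the median over events (exact permutation p = 1), and by -0.198 to -0.189 with libraries left out. Mean PSI of introns differed by -0.244 without replicate 1 and -0.228 without DMSO siNT1 replicate 1, a library left out after seeing the data, and by -0.244 to -0.0659 over all such settings. The causes were not tested. Depth limits events of 21 to 81 reads, such as the alternative 5′ sites, more than genes of 10000 counts.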

Other observations

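Some genes of the lists stayed under the count filter and were low without active RAS. AREG, a ligand of the EGF receptor, had 0 counts in the 8 DMSO libraries and 13 in the 8 4OHT libraries. IL1RN, the natural antagonist of interleukin-1, had 0 against 61 counts, at least 20-fold higher against a floor of 3 counts over the group. CCL3, a macrophage attractant, had 0 against 516 counts, at least 173-fold higher, and CCL8 0 against 7. With 10 counts in 8 libraries as the filter, the cell cycle inhibitor CDKN2C, which encodes p18, stood at a log2 fold change of -3.60, CDKN2D, which encodes p19, at 0.55 and CDK1, the mitotic kinase, at -1.69 in edgeR. VWF, an endothelial marker, had 1.47, 1.72 and 2.02 CPM as lowest, median and highest DMSO library and 2.59, 2.96 and 3.80 CPM in 4OHT. These genes were chosen after their values were seen.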
